A study of Mus musculus with 4 samples.

Results

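The insulin-like growth factor family was followed in mouse tail intervertebral discs through 9 genes of the 32285 in the deposited tables. They were the ligands Igf1 and Igf2, the receptor Igf1r and the binding proteins Igfbp2 to Igfbp7, taken by symbol from the gene tables, and each symbol matched 1 row. Unique molecular identifiers (UMIs, tags that count captured mRNA molecules) were read for every cell barcode with at least 250 detected genes, which left 3846 barcodes in 4 libraries. The animals were wildtype female C57BL/6 mice aged 12 weeks, and all groups came from the tail discs of the same animals. Injured discs lay between coccygeal vertebrae 5/6 and 9/10, had been pierced from both sides with a 30 gauge needle and were collected at day 7. Control discs lay between 12/13 and 16/17 and were not punctured, so the needle injury and the position along the tail cannot be told apart. Discs of 6 mice, 30 per group, were pooled, snap frozen, thawed and dissociated, and viable cells were sorted. The series has 2 rounds, each with 1 control and 1 injured library, and whether the stated numbers refer to each round is not given in the sources used here.

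Insulin-like growth factors are secreted peptides that drive growth, matrix synthesis and survival. IGF-1 and IGF-2 both signal through the receptor tyrosine kinase encoded by Igf1r, which passes the signal through insulin receptor substrates to the PI3K and AKT kinases. In tissue fluid most of the ligand is held by binding proteins, which carry it, keep it from the receptor or, when anchored in matrix and cut by proteases, release it near cells. In cartilage and disc the ligands are best known for raising proteoglycan and collagen production.

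The members lie at separate places in the GRCm38 genome, with positions of whole genes from GENCODE. Igf1 lies on chromosome 10 (87858265 to 87937042, plus strand), Igf2 on chromosome 7 (142650766 to 142666816, minus strand) and Igf1r on chromosome 7 (67952827 to 68233668, plus strand). Igfbp2 (72824503 to 72852474, plus) and Igfbp5 (72857932 to 72874884, minus) are neighbours on chromosome 1, with their 3′ ends facing each other across 5.458 kb. Igfbp3 (7206086 to 7213923, minus) and Igfbp4 (99041244 to 99054392, plus) are on chromosome 11, Igfbp6 is on chromosome 15 (102144362 to 102149511, plus) and Igfbp7 on chromosome 5 (77349240 to 77408041, minus). The 4 binding proteins with the most UMIs carried most of the differences between cells and groups described here, so the 150 bases before their annotated starts are shown to let their promoters be compared. They are from RefSeq on GRCm38.p6, in which 9 of 9 members matched with 13 starts, and are read 5′ to 3′ on the gene's own strand. The intervals are chr11:99041094-99041243 (plus) for Igfbp4, chr1:72874866-72875015 (minus) for Igfbp5, chr15:102144036-102144185 (plus) for Igfbp6 and chr5:77408046-77408195 (minus) for Igfbp7. Capitals mark matches, on either strand, to the TATA box TATAAA, the CCAAT box CCAAT, the GC box GGGCGG and the E-box CACGTG.
Igfbp4: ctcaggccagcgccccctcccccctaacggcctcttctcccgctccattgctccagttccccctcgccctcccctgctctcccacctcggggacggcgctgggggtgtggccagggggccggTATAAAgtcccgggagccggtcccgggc
Igfbp5: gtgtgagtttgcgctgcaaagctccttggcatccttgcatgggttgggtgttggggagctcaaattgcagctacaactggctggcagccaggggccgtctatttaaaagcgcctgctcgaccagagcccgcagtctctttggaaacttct
Igfbp6: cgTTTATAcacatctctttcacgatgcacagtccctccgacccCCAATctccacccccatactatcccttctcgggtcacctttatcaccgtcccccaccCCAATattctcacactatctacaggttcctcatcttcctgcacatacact
Igfbp7: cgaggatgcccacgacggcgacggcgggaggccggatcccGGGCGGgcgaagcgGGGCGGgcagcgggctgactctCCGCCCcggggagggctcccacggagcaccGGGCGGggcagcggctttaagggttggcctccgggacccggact
The Igfbp4 window held 1 TATA box, 28 to 23 bases before the start, and 73.3% G and C. The Igfbp7 window held 4 GC boxes in 78% G and C, while the Igfbp6 window held 2 CCAAT boxes and 1 TATA box on the opposite strand, at 148 to 143 bases before the start, in 50.7%. No motif of the 4 stood in the Igfbp5 window, at 55.3%. The median over all promoters was 54% G and C, and the same windows of 32851 promoters held the TATA box in 7.57%, the CCAAT box in 24.5%, the GC box in 28.6% and the E-box in 4.3%. The letters differed between the 4 genes, and these matches describe the windows only. The RefSeq start used for Igfbp6 lies upstream of its GENCODE start.

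The control and injured libraries of round 1 held 378 and 778 barcodes and those of round 2 held 856 and 1834, with median UMIs per barcode between 836 and 7034. The control library of round 1 had been filtered before deposit, and 159 of its 378 barcodes were also present in the injured library of that round at 0.3 or more times their own UMIs, so tests over all cells and over the inner class were also run without them. No doublets were removed. Clusters were built without the 9 members and named from fixed markers. An inner annulus or cartilage-like class (the inner class) joined 4 clusters and an outer annulus or fibroblast-like class (the outer class) joined 3. The outer class held none of the shared barcodes, and 95 of the 203 inner-class barcodes of control round 1 were shared. Both classes were filled by different clusters in the 2 groups. Of the inner class, the cluster led by Cnmd and Grem1 held 45.8% and 82.1% in the controls and 6.21% and 7.20% in the injured libraries of rounds 1 and 2. Of the outer class, the cluster led by Myoc and Angptl7 held 86.1% and 91.8% in the controls and 55.2% and 13.0% in the injured libraries, where the cluster led by Aspn and Cthrc1 held 41.4% and 68.1%. Levels are given as UMIs per 1000000 UMIs of the same cells (CPM) and, since capture differs between transcripts, are compared between cells or libraries and not between genes. In sums, fewer cells of a type and less RNA per cell cannot be told apart. Counting intervals cover counting error only.

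Across all 3846 barcodes the family ranged from 4 UMIs for Igfbp2 to 42324 for Igfbp7, which was found in 2827 barcodes (73.5%). Igfbp6 had 12066 UMIs in 1456 barcodes, Igfbp4 3577 in 798, Igfbp5 1901 in 378 and Igfbp3 134 in 84. The ligand Igf1 had 916 UMIs in 268 barcodes, Igf2 179 in 121, and the receptor Igf1r 1629 in 1036. The plot of levels by cell group shows how unevenly most of them were spread.

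**Figure D1:**
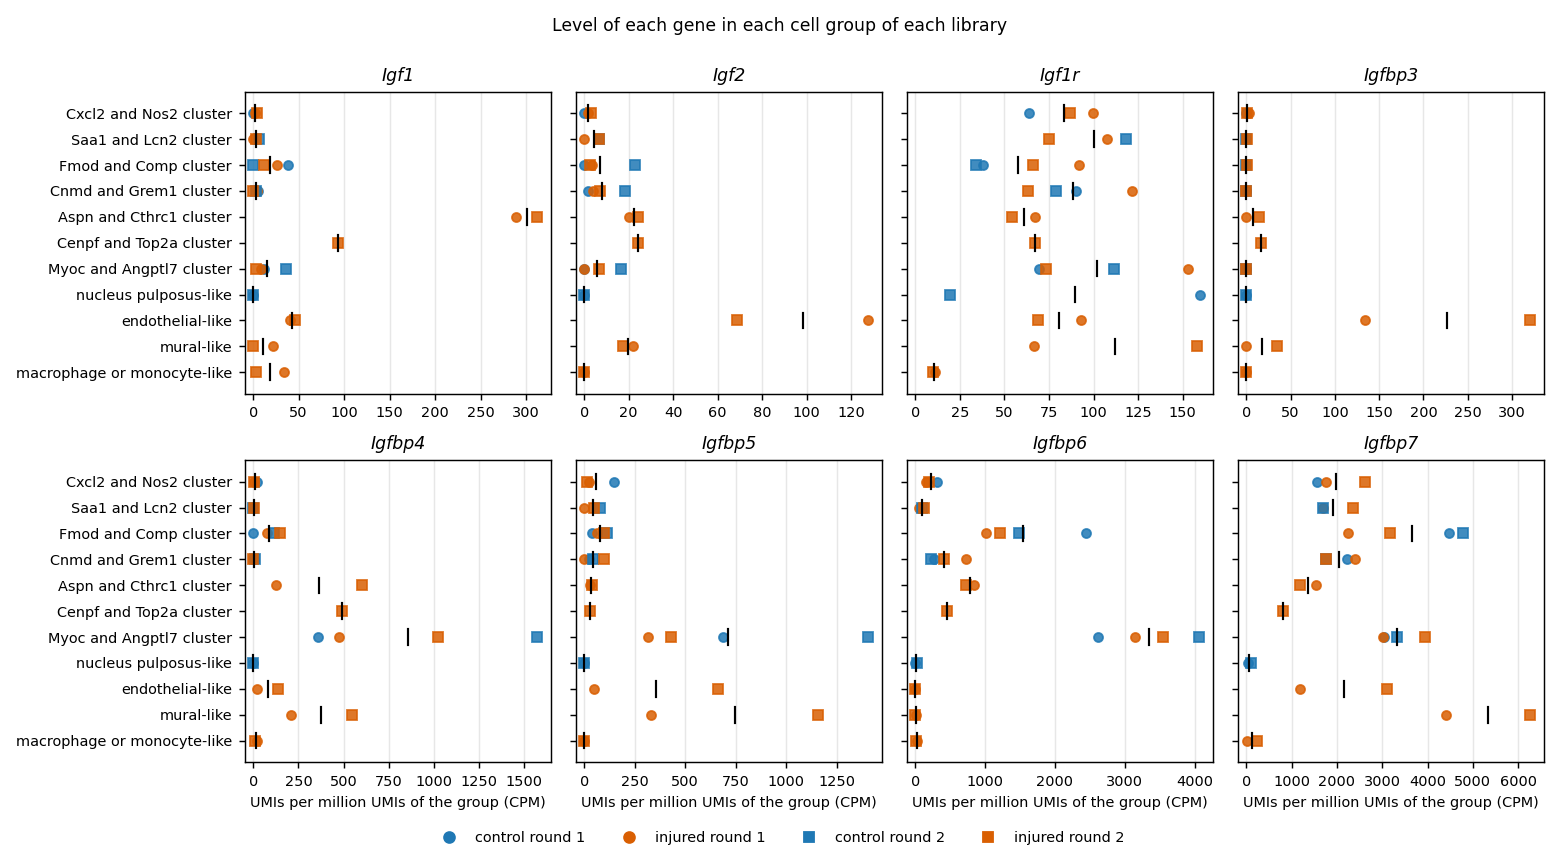
Level of each member except Igfbp2 (CPM of the cell group's UMIs, x axis) in 11 cell groups of the discs; points are libraries with at least 10 cells and 10000 UMIs in that group, and black bars are their means. Of the groups drawn, Igf1 is highest in the Aspn and Cthrc1 cluster, Igf2 in endothelial-like cells, and Igfbp5 in mural-like cells and the Myoc and Angptl7 cluster, while Igf1r differs little between most of them. Unnamed clusters are not drawn, among them the Ccl11 and Dpep1 cluster, which has the highest mean of Igfbp4 and the next highest of Igf1 and Igfbp3.

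Igf1, the main growth-promoting ligand, was concentrated in outer-class cells. The outer class held 18.6% of all cell UMIs and 82.3% of Igf1 UMIs, and the Aspn and Cthrc1 cluster, a fibroblast-like group led by matrix genes, held 10.5% and 73.4%. Most of these came from injured round 2, which gave 608 of the cluster's 672 Igf1 UMIs. Without that library the class held 43.2% of Igf1 UMIs (8.66% of all UMIs) and the cluster 34.6% (1.99% of all UMIs). Its level there was 289 CPM in injured round 1 and 312 CPM in injured round 2 (mean 300.8 ± 16.2, SD, n = 2 libraries). The 5 and 4 such cells of the controls, too few for the order of groups, gave 463 CPM from 12 UMIs and 387 CPM from 9 UMIs. The next group in the order was the Ccl11 and Dpep1 cluster at 225 ± 52.7 CPM (SD, n = 3). It rested on 25 Igf1 UMIs in control round 2 (218 CPM, 95% counting interval 141 to 321) and on 3 and 2 UMIs in the round 1 libraries (281 CPM, 58.0 to 822, and 177 CPM, 21.4 to 639), so the 2 clusters were not told apart within counting error. In that unnamed cluster all 17 control round 1 barcodes were shared with the injured library, and its 320 barcodes had a median of 386 UMIs. The dividing fibroblast-like cluster led by Cenpf and Top2a, seen in injured round 2 with 68 of its 69 cells, had 92.9 CPM. Levels within the Myoc and Angptl7 cluster were far lower, at 11.6 and 36.3 CPM in the controls and 8.49 and 3.32 CPM in the injured libraries. Nucleus pulposus-like cells, named from T, Car3 and keratins, had 0 Igf1 UMIs in 102646 UMIs of control round 2, which allows up to 29.2 CPM, and in 62631 UMIs of control round 1, which allows up to 47.9 CPM. These barcodes had a median of 1303 UMIs, and a median of 46.0% of UMIs were mitochondrial, which lowers the CPM of other genes.

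Igf2, the fetal growth ligand, was sparse. Its highest level was in endothelial-like cells, at 128 CPM (22 UMIs, 40.9% of them in the top cell) in injured round 1 and 68.7 CPM (3 UMIs) in injured round 2. These cells held 15.1% of Igf2 UMIs over the 4 libraries, and 3.57% without injured round 1. The Aspn and Cthrc1 cluster held 27.9%, and 4.17% without injured round 2, at a level of 22.2 ± 2.80 CPM (SD, n = 2). Macrophage-like cells held no Igf2 UMI in either injured library.

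Igf1r, the receptor both ligands use, was spread over most cell groups. Its mean level ran from 134 CPM in the Krt18 and Krt8 cluster down to 55.6 CPM in the Ccl11 and Dpep1 cluster over 13 cell groups. Among neighbours in that order with an SD none differed beyond the pooled spread. Sorting puts like means side by side, so this does not show equal levels over the range. The Krt18 and Krt8 value rested on 1 and 6 UMIs in control rounds 1 and 2, and all 17 of its control round 1 barcodes were shared. The inner class held 75.8% of Igf1r UMIs and 71.0% of all cell UMIs. In the Cnmd and Grem1 cluster the level was 89.9 and 78.7 CPM in the controls and 122 and 63.4 CPM in the injured libraries, and in the Myoc and Angptl7 cluster its mean was 102 ± 39.0 CPM (SD, n = 4). Macrophage-like cells stood lower, at 11.2 and 10.1 CPM in the injured libraries, which was also below the 39.6, 22.8 and 17.1 CPM of barcodes with at most 100 UMIs, read here as free RNA, in injured round 1, control round 2 and injured round 2.

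Igfbp7, a matrix-bound member with low affinity for the ligands, was found in most disc cells. The inner class held 78.7% of its UMIs, beside 71.0% of all cell UMIs. Its level was highest in mural-like cells, the contractile cells around vessels, at 4412 and 6264 CPM in the injured libraries. The Fmod and Comp cluster of the inner class (3663 ± 1180 CPM, SD, n = 4) and the Myoc and Angptl7 cluster (3333 ± 430, SD, n = 4) followed and did not differ beyond their spread. In control round 1 the Fmod and Comp cluster had 15 cells, 11 of them shared barcodes, and its top cell held 61.5% of its Igfbp7 UMIs. The Cnmd and Grem1 cluster had 2230 and 1770 CPM in the controls and 2401 and 1769 CPM in the injured libraries. Nucleus pulposus-like cells (69.6 ± 53.2 CPM, SD, n = 2), rich in mitochondrial UMIs as given above, and macrophage-like cells (128 CPM on average) were below the free RNA level of 328 to 449 CPM.

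Igfbp6, which prefers IGF-2, was ordered among the disc fibroblast and cartilage clusters. The Myoc and Angptl7 cluster had 2614 and 4066 CPM in the controls and 3151 and 3548 CPM in the injured libraries (mean 3345 ± 615, SD, n = 4). Every one of those 4 values lay above each of the 4 values of the Fmod and Comp cluster, the next in the order at 1537 ± 638 CPM. In control round 1, where that cluster had 15 cells, its top cell held 60.9% of its Igfbp6 UMIs. The Fmod and Comp cluster held 36.0% of Igfbp6 UMIs and 18.2% of all cell UMIs. The Aspn and Cthrc1 cluster had 848 and 733 CPM in the injured libraries, and the Cnmd and Grem1 cluster had a mean of 408.5 ± 224 CPM (SD, n = 4). Endothelial-like cells held 0 Igfbp6 UMIs in 172348 UMIs of injured round 1, which allows up to 17.4 CPM, against 184 CPM in that library's free RNA.

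Igfbp5, a binding protein that is known to bind matrix and is made by many connective tissue cells, was concentrated in few cells of the controls. The Myoc and Angptl7 cluster held 68.4% and 76.3% of Igfbp5 UMIs in the controls, with 16.2% and 16.6% of all UMIs there. In the injured libraries it held 11.9% and 17.1%, with 1.75% and 2.85% of all UMIs. Over the 4 libraries its share was 41.5%, and 23.0% without control round 2. Mural-like cells had 332 and 1158 CPM in the injured libraries, and the Myoc and Angptl7 cluster had 690 and 1406 CPM in the controls and 314 and 429 CPM in the injured libraries, so that the 2 groups of cells (745 ± 584 and 710 ± 490 CPM) did not differ beyond their spread. Macrophage-like cells held 0 Igfbp5 UMIs in 297933 UMIs of injured round 2, which allows up to 10.1 CPM, where the free RNA of that library had 43.4 CPM. Outer-class cells held no UMI of the mural markers Myh11 and Kcnj8 in any library, and detected 3 to 6 of the 8 mural markers at a summed 212 to 318 CPM.

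Igfbp4, which binds either ligand and is cut by the protease PAPP-A, was highest in the Ccl11 and Dpep1 cluster at 2268 ± 597 CPM (SD, n = 3), beyond the pooled spread from the Myoc and Angptl7 cluster, at 359 and 1571 CPM in the controls and 476 and 1020 CPM in the injured libraries. The rounds differed more than the groups there, with both round 2 values above both round 1 values. The outer class held 70.9% of Igfbp4 UMIs, and 55.9% without injured round 2. The Cnmd and Grem1 cluster was almost without it, with 3 UMIs of 544873 in control round 1, 12 of 978296 in control round 2 and 0 in both injured libraries. In the Fmod and Comp cluster of the same class the level was 78.4 and 146 CPM in the injured libraries.

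Igfbp3, the main carrier of circulating IGF, stood at 134 CPM (23 UMIs) in endothelial-like cells of injured round 1 and 320.5 CPM (14 UMIs) in those of injured round 2. Their mean of 227 CPM was the highest in the order, but it did not differ beyond the pooled spread from the 105 CPM of the Ccl11 and Dpep1 cluster, which had 226 CPM (26 UMIs) in control round 2. These levels were above the free RNA of the same libraries, at 7.14 and 13.3 CPM. Endothelial-like cells held 29.9% of Igfbp3 UMIs, and 17.7% without injured round 1. All 29 UMIs of the Aspn and Cthrc1 cluster came from injured round 2, where its 14.9 CPM was close to that of free RNA, and 26 of the 28 UMIs of the Ccl11 and Dpep1 cluster came from control round 2. Both the Cnmd and Grem1 cluster and the Myoc and Angptl7 cluster held 0 Igfbp3 UMIs in the 4 libraries. Igfbp2 was at the edge of detection, with 1 UMI in control round 1 and 3 in injured round 2.

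Likeness of pattern was measured as Pearson r of log2(CPM + 10) over 32 sums of 1 cluster in 1 library, from 15 clusters, among 8016 genes. The sums share libraries, clusters and depth, so r is a description. For Igf1 the nearest genes were Mmp2 (0.857), Mfap5 (0.845) and Loxl1 (0.833), which encode a matrix protease, a microfibril protein and a collagen cross-linking enzyme. For Igfbp4 they were Clec3b (0.933), Serping1 (0.917) and Serpinf1 (0.881), and for Igfbp5 Clec3b (0.748), Wfdc1 (0.743) and Ltbp4 (0.731). Igfbp6 was nearest to Thbs3 (0.898), Matn2 (0.870) and Prelp (0.866), and Igfbp7 to Sparc (0.902) and the small proteoglycans Dcn (0.893) and Bgn (0.868). For Igf1r they were Fermt2 (0.863), Golim4 (0.843) and Creb3l2 (0.841). Among the members themselves the highest r was that of Igf1 and Igfbp4 (0.716), followed by Igfbp6 and Igfbp7 (0.705) and Igfbp5 and Igfbp6 (0.702), and the lowest was that of Igf1 and Igf1r (-0.04).

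The comparison of injured with control discs asked how each member's level differed 7 days after puncture. Sums per library were tested with edgeR's quasi-likelihood test over all genes, 2 libraries against 2, and a gene is said to be called where its adjusted p (Benjamini-Hochberg) is under 0.05. The rounds pair libraries from the same animals, and the fit with the round as a block is given where it changes a call. Each library pools animals, so the spread behind the p-values is between pools and not between animals. With so few libraries the test borrows much of that spread from other genes. The block leaves even less from which to estimate a gene's own spread. Blocked p-values therefore rest mostly on the spread of other genes, and a call made only with the block is weak evidence for a single gene.

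In all cells, Igfbp5 had 164 and 306 CPM in the controls of rounds 1 and 2 and 46.2 and 71.5 CPM in the injured libraries. Both injured values were below both controls, and injured over control was 0.283 in round 1 (95% counting interval 0.234 to 0.342) and 0.234 in round 2 (0.210 to 0.260). The fitted log2 fold change came to -1.92 ± 0.45 (SE; adjusted p 0.241, edgeR), and -1.97 without the shared barcodes (adjusted p 0.337). With the round as a block it fell by 1.90 on the log2 scale (edgeR adjusted p 2.53e-04, and 0.0111 without the shared barcodes). Summed markers of 5 cell type lists differed without overlap in the same libraries. Those of the nucleus pulposus stood at 1780 and 1401 CPM in the controls and 698 and 419 CPM in the injured libraries, with Noto at 0 in all 4. Macrophage markers were higher in the injured libraries (105 and 253 against 432 and 500 CPM), as were mural (202 and 281 against 315 and 411 CPM), outer-list (11250 and 12340 against 18840 and 28660 CPM) and inner-list markers (15320 and 12260 against 18700 and 17680 CPM). Their part in the all-cell differences was not tested.

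Igfbp4 in all cells had 94.9 and 433 CPM in the controls and 35.2 and 218 CPM in the injured libraries. Each round's injured value was below its control, but the groups overlapped, since injured round 2 lay above control round 1. Its log2 fold change was -0.95 ± 0.92 (edgeR adjusted p 0.884), and -1.12 ± 0.27 with the round as a block (adjusted p 0.0213). Without the shared barcodes the blocked adjusted p was 0.0915, and the unblocked log2 fold change was 0.49 without control round 2 and -2.87 without injured round 2 (adjusted p 9.16e-04). Without the clusters of barcodes with similar UMIs, of which the Ccl11 and Dpep1 cluster alone held 35.3% of control round 2 Igfbp4 UMIs, it was -0.49.

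The other members were not called in all cells in either fit. Igfbp6 had 741 and 984 CPM in the controls and 373 and 629 CPM in the injured libraries, which did not overlap (log2 fold change -0.71 ± 0.42, edgeR adjusted p 0.774). Igfbp7 was level at 1994 and 2169 CPM in the controls and 1815 and 2207 CPM in the injured libraries (0.02 ± 0.36). Igf1r had 82.7 and 82.4 CPM in the controls and 95.7 and 68.1 CPM in the injured libraries (0.04 ± 0.34). Igf1 had 20.7 and 27.3 CPM in the controls and 15.5 and 69.2 CPM in the injured libraries, the latter higher only in round 2 (0.91 ± 0.69, -0.61 without injured round 2 and 1.45 without the clusters of similar barcodes). Igf2 (2.82 to 13.9 CPM) and Igfbp3 (2.82 to 13.0 CPM) overlapped. Without the shared barcodes the values were -0.74 for Igfbp6, -0.02 for Igfbp7, -0.01 for Igf1r, 0.97 for Igf1, -0.12 for Igf2 and -0.49 for Igfbp3. The Igfbp3 value turned to 2.40 without the clusters of similar barcodes, and that of Igf2 ran from -0.67 to 1.56 over the left-out libraries. The plot of injured against control values shows these levels side by side.

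Of the 8 members tested in all cells, 0 were called by edgeR, against 0.0834% of the 11987 genes tested. By unadjusted p under 0.05 the count was 1 (Igfbp5), near the 7.89% of all genes, and DESeq2 called the same gene among 168 of 16401 genes. With the round as a block 2 members were called, where 6.7% of all genes were. The control and injured levels of Igfbp5 and Igfbp6 did not overlap, as did those of 37.0% of all genes.

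In the outer class, Igfbp5 fell. Its level was 695 CPM (138 UMIs) in control round 1 and 1389 CPM (530 UMIs) in control round 2, and 145 CPM (41 UMIs) and 76.0 CPM (224 UMIs) in the injured libraries. The lowest control was more than 4 times the highest injured value, and injured over control was 0.209 in round 1 (0.144 to 0.298) and 0.0547 in round 2 (0.0466 to 0.0641). The log2 fold change was -3.31 ± 0.56 (9.91-fold lower, edgeR adjusted p 0.0262). Igfbp5 was 1 of 6 members called, where 0.838% of the 4655 genes tested were called and 0.279% were called lower. The outer class had 36 and 49 cells in the controls and 29 and 361 in the injured libraries of rounds 1 and 2. Without injured round 2 the log2 fold change was -2.90 with an adjusted p of 0.914, and no gene was called.

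Igf1 in the outer class had 70.6 and 57.7 CPM in the controls and 156 and 229 CPM in the injured libraries, without overlap. The log2 fold change was 1.597 ± 0.49 (edgeR adjusted p 0.179), and with the round as a block Igf1 rose by 1.602 on the log2 scale (adjusted p 0.00426). Over 13 alternatives the Igf1 value ran from 0.92 to 1.85. Igfbp6 had 2605 and 4211 CPM in the controls and 1762 and 956 CPM in the injured libraries (-1.37 ± 0.45, adjusted p 0.206), and fell with the round as a block (-1.39, adjusted p 0.0114). With the block 3 members were called, where 9.8% of all genes were.

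Igfbp7 in the outer class had 2706 and 3234 CPM in the controls and 2078 and 1381 CPM in the injured libraries (-0.82 ± 0.41, edgeR adjusted p 0.469). Igfbp4 overlapped, with 333 and 1494 CPM in the controls and 266 and 619 CPM in the injured libraries (-1.04 ± 0.66), and so did Igf1r, with 65.5 and 118 CPM in the controls and 114 and 59.4 CPM in the injured libraries. Igf2 and Igfbp3 had too few UMIs to test, and all 41 Igfbp3 UMIs came from injured round 2. Groups did not overlap for 4 of the 6 tested members, and for 40.8% of all genes. Summed markers of the inner class moved in the same libraries, from 20710 and 16910 CPM in the controls to 17830 and 8139 CPM in the injured libraries, and macrophage markers stood at 10.1 and 21.0 CPM in the controls and 21.3 and 47.5 CPM in the injured libraries, with Adgre1 at 0 in all 4. Endothelial markers stood at 25.2 and 13.1 CPM in the controls and 28.4 and 48.9 CPM in the injured libraries, with Kdr and Emcn at 0 in all 4. Nucleus pulposus markers stood at 181 and 160 CPM in the controls and 153 and 53.6 CPM in the injured libraries, with Shh and Noto at 0 in all 4, and those of the outer list at 31710 and 39960 CPM in the controls and 43200 and 50640 CPM in the injured libraries. Their part in the result was not tested.

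The outer-class values were then split by cluster, which the plot of outer-class clusters shows. Within the Myoc and Angptl7 cluster, Igfbp5 was lower in both injured libraries (119 and 504 UMIs in the controls, 37 and 129 in the injured libraries) without overlap. The log2 fold change there was -1.34 ± 0.48 (edgeR adjusted p 0.999), against -3.31 in the whole class, and 0.0306% of 3266 genes were called. Summed markers moved in the same cells without overlap. Inner-list markers went from 23230 and 17520 CPM in the controls to 33380 and 36460 CPM, outer-list ones from 32890 and 39590 to 52690 and 53660 CPM. Macrophage markers went from 11.6 and 19.5 to 34.0 and 29.9 CPM, and the part of these shifts was not tested. In the Aspn and Cthrc1 cluster Igfbp5 had 734 CPM (19 UMIs in 5 cells) and 1118 CPM (26 UMIs in 4 cells) in the controls and 26.9 CPM (4 UMIs in 12 cells) and 38.0 CPM (74 UMIs in 246 cells) in the injured libraries. The few control cells of that cluster had levels near those of the Myoc and Angptl7 cluster, and the many injured cells did not. These control cells held no UMI of Cthrc1 or Tnc in either round, so they are not shown to be the same kind of cell as the injured ones. Their Igfbp5 came from 3 cells in each control, with 63.2% and 53.9% of the UMIs in the top cell.

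The same split separated the other members. Igfbp6 in the Myoc and Angptl7 cluster overlapped between groups (log2 fold change 0.15), while in the Aspn and Cthrc1 cluster it had 2549 and 6451 CPM in the few control cells and 848 and 733 CPM in the injured libraries. Igfbp7 (0.28) and Igfbp4 (-0.19) overlapped or differed little in the Myoc and Angptl7 cluster. Igf1, higher in the injured libraries over the whole class, was lower in the injured library of each round within both clusters. In the Myoc and Angptl7 cluster it had 11.6 and 36.3 CPM (2 and 13 UMIs) in the controls and 8.49 and 3.32 CPM (1 UMI each) in the injured libraries. In the Aspn and Cthrc1 cluster it had 463 and 387 CPM (12 and 9 UMIs) in the controls and 289 and 312 CPM (43 and 608 UMIs) in the injured libraries. These control counts are few, and neither difference was tested. The share of each cluster in the class differed between the groups in the same libraries, as given above, and its part in the class-wide differences of Igf1, Igfbp6 and Igfbp7 was not tested.

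**Figure D2:**
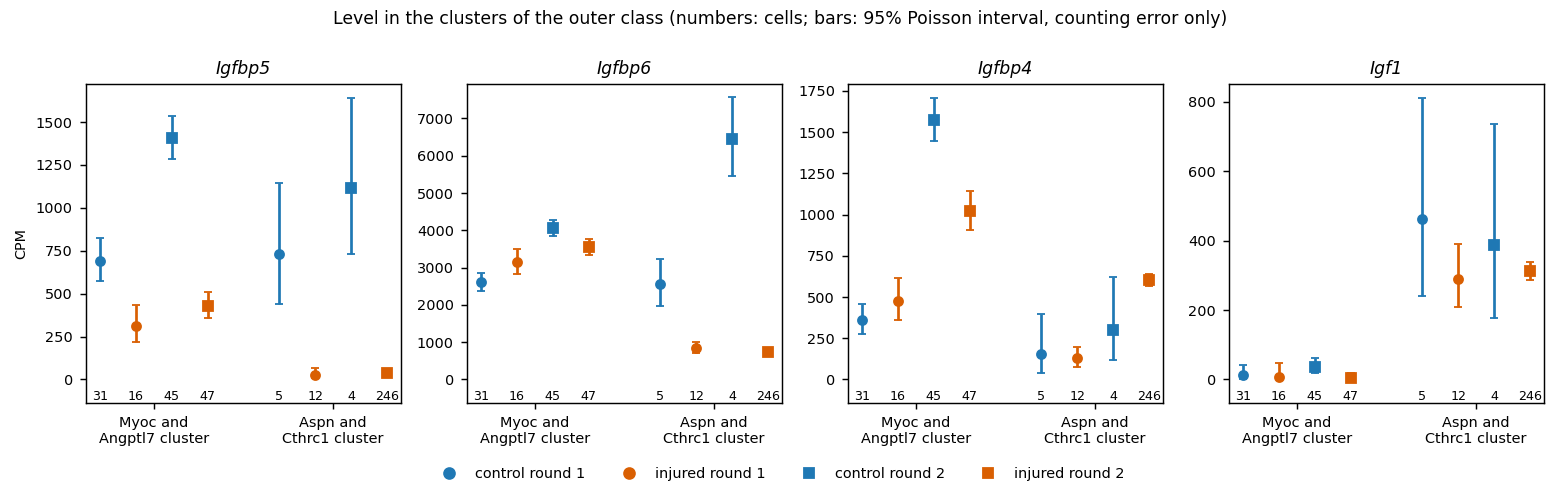
Level of Igfbp5, Igfbp6, Igfbp4 and Igf1 (CPM, y axis) in the 2 largest clusters of the outer class; points are libraries with 95% Poisson counting intervals, and the number of cells stands under each. Igfbp5 is lower in the injured libraries than in the controls of both clusters. The control cells of the Aspn and Cthrc1 cluster held no UMI of Cthrc1 or Tnc. In every library Igf1 is higher in the Aspn and Cthrc1 cluster, whose controls hold 5 and 4 cells, than in the Myoc and Angptl7 cluster.

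In the inner class no member was called by edgeR, of 7 tested, where 0.0% of the 10878 genes tested were. By unadjusted p under 0.05 the count was 1 member, Igfbp4, and 793 genes, and DESeq2 called 0 members. Igfbp4 had 7.26 and 16.8 CPM in the controls and 18.2 and 57.0 CPM in the injured libraries, the lowest injured value just above the highest control. The log2 fold change was 1.74 ± 0.68 (edgeR adjusted p 0.633), and 1.84 without the shared barcodes. It was 0.61 without injured round 2, 2.50 without control round 2 and 2.41 without injured round 1 (adjusted p 0.0129). With the round as a block Igfbp4 rose by 1.81 on the log2 scale (adjusted p 2.40e-04, and 7.53e-05 without the shared barcodes), among 8.33% of genes called. All these levels were below the 66.1 to 121 CPM of free RNA. With coarser clusters (resolution 0.5), where the inner class held fewer cells in each library, the value was -1.62. Summed markers of the outer annulus or fibroblast list, whose class held most Igfbp4 UMIs, stood in the inner class at 7581 and 5710 CPM in the controls and 19160 and 21630 CPM in the injured libraries, and at least 15 of its 17 genes were detected in each. Their part in the result was not tested. The Cnmd and Grem1 cluster, with 45.8% and 82.1% of the inner class in the controls, was almost without Igfbp4, as given above.

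Of the other inner-class members tested, all but Igf1 overlapped between groups, and none was called in either fit. Igfbp3 had too few UMIs to test, with 0 in both controls and 14 and 3 in the injured libraries (2.45 and 0.438 CPM), each below what the 0 of its round's control allows (4.36 and 2.29 CPM). Igfbp5 had 45.0 and 48.8 CPM in the controls and 28.3 and 61.6 CPM in the injured libraries (log2 fold change 0.09 ± 0.48, and -0.95 at resolution 0.5). Igfbp6 had 362 and 288 CPM in the controls and 342 and 547 CPM in the injured libraries (0.59 ± 0.42), which turned to -0.32 at resolution 0.5 and to -0.05 with classes from a marker score. Igfbp7 had 2189 and 2049 CPM in the controls and 1881 and 2677 CPM in the injured libraries (0.24 ± 0.40). Igf1 had 5.81 and 3.81 CPM (4 and 5 UMIs) in the controls and 6.99 and 6.43 CPM in the injured libraries (0.67 ± 0.62, edgeR adjusted p 0.860). All these Igf1 levels were below the 12.9 to 29.9 CPM of free RNA. Igf1r was 73.5 to 99.5 CPM and Igf2 1.45 to 16.8 CPM over the 4 libraries. Leaving out the shared barcodes gave 0.05 for Igfbp5, 0.65 for Igfbp6, 0.23 for Igfbp7, 0.81 for Igf1, 0.19 for Igf1r and -1.45 for Igf2. Over all alternatives, Igfbp5 ran from -0.95 to 0.62 and Igf2 from -2.12 to 1.30. Groups did not overlap for 2 of 7 tested members (Igf1 and Igfbp4) and for 37.4% of all genes. Within the Cnmd and Grem1 cluster alone, which held no shared barcode, Igfbp6 had 272 and 231 CPM in the controls and 726 and 405 CPM in the injured libraries (1.17 ± 0.50, edgeR adjusted p 0.9997), and 0.0% of 5418 genes were called. Summed outer-list markers in that cluster went from 5436 and 2740 CPM in the controls to 8201 and 6616 CPM. Inner-list ones went from 16500 and 11100 to 20760 and 18810 CPM, and the part of these shifts was not tested.

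The difference of the injury effect between classes was tested itself, as an interaction with the library as a term. Igfbp5 differed, its log2 fold change being lower in the outer than in the inner class by -3.37 ± 0.64 (edgeR adjusted p 0.0305), and so did Igfbp4 by -2.72 ± 0.51 (adjusted p 0.0305). These were 2 of 7 members tested, where 0.386% of 9321 genes were called. Without the shared barcodes the values were -3.31 and -2.92, both called. Igfbp6 differed by -1.96 ± 0.57 (adjusted p 0.221) and was called with the round as a block (adjusted p 0.00103), where 3.18% of genes were. Without injured round 2 neither was called (-2.16 for Igfbp5, adjusted p 0.134, and -2.43 for Igfbp4, adjusted p 0.0935), and without control round 2 Igfbp4 was not (-2.05, adjusted p 0.417). Without injured round 1 Igfbp5 moved to -4.37, a 20.7-fold difference against 10.35-fold with all libraries. Between the Myoc and Angptl7 and the Cnmd and Grem1 clusters alone, the value was -1.61 ± 0.88 for Igfbp5 (adjusted p 1), and for Igfbp4 no difference is read, since the latter cluster held 15 UMIs in the controls and 0 in both injured libraries.

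The makeup of the binding protein pool was also compared, as each gene's percent of the UMIs of Igfbp2 to Igfbp7 in a library. These shares are of UMIs and not per length, and only the same gene is compared between libraries. In all cells Igfbp5 made up 5.46% and 7.83% of the pool in the controls and 2.03% and 2.28% in the injured libraries. Igfbp6 made up 24.7% and 25.2% in the controls and 16.4% and 20.1% in the injured libraries, and Igfbp7 66.5% and 55.6% against 79.8% and 70.5%. For all 3 genes the groups did not overlap. In the outer class Igfbp5 made up 10.97% and 13.5% in the controls and 3.42% and 2.50% in the injured libraries, and Igfbp7 42.7% and 31.3% against 48.9% and 45.3%. Of the inner-class pool Igfbp7 made up 84.1% and 85.3% in the controls and 82.8% and 80.1% in the injured libraries, without overlap and in the other direction than in all cells. Without the shared barcodes injured minus control was -4.64 percentage points for Igfbp5, -6.90 for Igfbp6 and 14.01 for Igfbp7 in all cells, and -3.69 for Igfbp7 in the inner class (with them -4.49, -6.73, 14.1 and -3.24). The Igfbp7 difference was 8.60 in all cells without control round 2 and -1.88 in the inner class without injured round 2. In the outer class, at 10.1 with all libraries, it ran from 4.42 without control round 2 to 15.8 without control round 1. With 2 libraries against 2, the two-sided exact permutation test cannot go below p = 0.33. Of 18 such tests 9 reached it, and the smallest adjusted value (Benjamini-Hochberg) was 0.667, so none could pass.

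**Figure D3:**
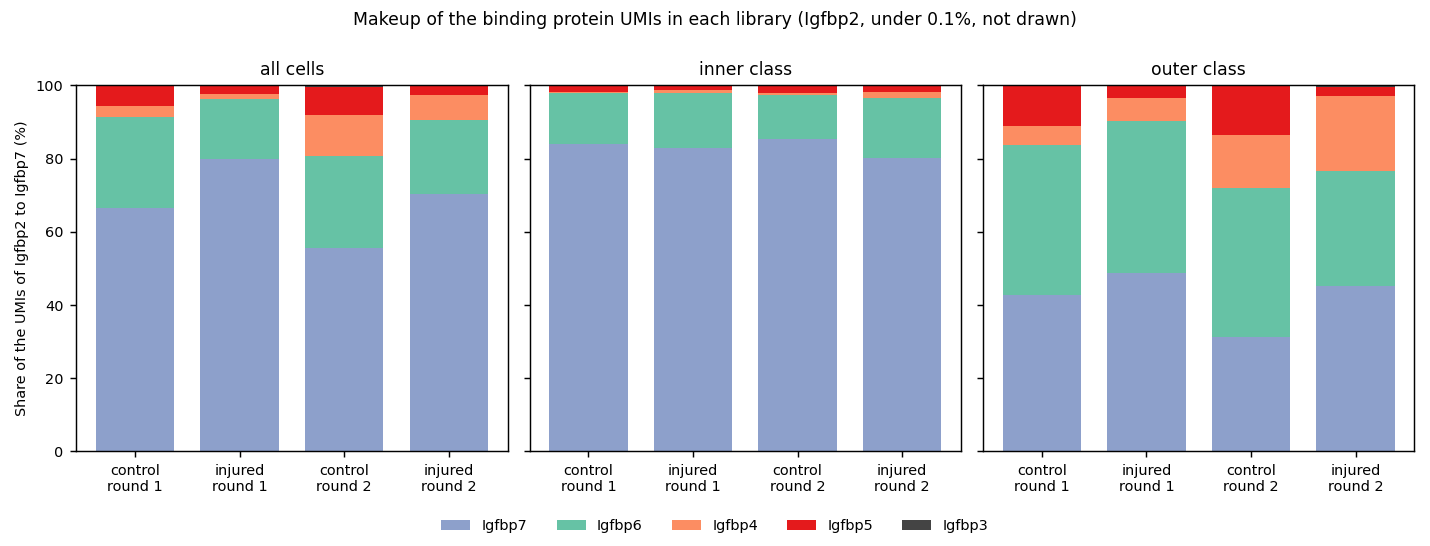
Percent of the UMIs of Igfbp2 to Igfbp7 taken by each binding protein (stacked bars from 0, 1 bar a library) over all cells, the inner class and the outer class. The Igfbp5 part is smaller in the injured libraries of all cells and of the outer class, and Igfbp7 fills most of the inner class.

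Shares of cells with at least 1 UMI were read after thinning each barcode to 1000 UMIs, since median depth differed between libraries, with 182 and 459 shallower barcodes left out of the controls and 135 and 243 out of the injured libraries (85, 30, 7 and 22 of them in the inner class). In all cells 8.67% and 9.07% of control barcodes held an Igfbp5 UMI against 2.49% and 4.53% of injured ones, where the unthinned shares were 8.47% and 11.2% against 8.36% and 10.1%. For Igfbp7 the thinned shares were 54.6% and 51.1% in the controls and 63.1% and 71.7% in the injured libraries. Among inner-class barcodes 15.3% and 14.5% of control and 21.9% and 28.8% of injured ones held Igfbp6, and for Igfbp7 the shares were 62.7% and 62.6% against 73.7% and 81.1%. Among outer-class barcodes, described without a test, 36.1% and 46.9% of control and 6.90% and 8.38% of injured barcodes held Igfbp5. Macrophage-like cells, used as the background type, gave 0% for Igfbp5 in both injured libraries and 0% and 7.79% for Igfbp7 at the same depth. With the barcodes shared in control round 1 left out, injured minus control was -5.86 percentage points for Igfbp5 and 14.8 for Igfbp7 in all cells, and 10.8 for Igfbp6 and 15.4 for Igfbp7 in the inner class (with them -5.36, 14.5, 10.4 and 14.8). The inner-class Igfbp6 difference depended on the depth, with 0.893 at 500 UMIs and 14.1 at 2000 UMIs, and the all-cell Igfbp5 one was -3.22 and -8.05 at those depths. None of 18 exact permutation tests could go below p = 0.33, and the smallest adjusted value was 0.750.

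Other genes of the axis were taken from a list of 37, covering receptors and adapters, proteases that cut binding proteins and their regulators, downstream signalling, growth hormone input and further family members. Of these 31 were tested in all cells, 30 in the inner class and 16 in the outer class, and 0 were called by edgeR in any of the 3. Unadjusted p was under 0.05 for 3, 2 and 2 of them, and for 7.89%, 7.29% and 11.7% of all genes tested. The list's median log2 fold change was 0.02 in all cells, 0.02 in the inner class and -0.13 in the outer class, beside -0.01, -0.05 and 0.01 over all genes tested. With the round as a block 3 were called in each comparison, where 6.7%, 8.33% and 9.8% of all genes were. These were Adam12, Socs2 and Irs2 in all cells and in the inner class, and Adamts1, Htra1 and Pik3r1 in the outer class. With the shared barcodes left out, edgeR's quasi-likelihood test called 0 in all cells and 0 in the inner class (3 in each at an unadjusted p under 0.05), and with the block as well Socs2 in all cells was no longer called (edgeR adjusted p 0.0571), while the other calls held at 0.0335 or below.

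Among the proteases, Adam12, which can cut binding proteins, had 1.88 and 2.78 CPM in the controls and 19.3 and 39.5 CPM in the injured libraries over all cells (log2 fold change 3.67 ± 0.62, edgeR adjusted p 0.103, blocked 4.50e-05). Inner-class cells gave 1.45 and 1.52 CPM in the controls and 18.4 and 20.01 CPM in the injured libraries. The log2 fold change without the shared barcodes was 3.83 in all cells and 4.35 in the inner class. The controls rested on 2 and 6 UMIs in all cells and 1 and 2 UMIs in the inner class, so their levels and the fold are uncertain, against 130 and 417 and 105 and 137 UMIs in the injured libraries. Htra1, a secreted serine protease, had 1154 and 1237 CPM in the outer-class controls and 613 and 295 CPM in the injured libraries (-1.45 ± 0.48, adjusted p 0.206, blocked 0.00364). Adamts1 in the outer class had 90.7 and 28.8 CPM in the controls and 138 and 113 CPM in the injured libraries (blocked edgeR adjusted p 0.0494). Stc1, which encodes an inhibitor of PAPP-A, had a log2 fold change of 2.40 in all cells on few UMIs.

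Among the signalling genes, Irs2, an adapter of the IGF-1 and insulin receptors, had 81.8 and 194 CPM in the controls and 37.5 and 57.8 CPM in the injured libraries over all cells (log2 fold change -1.46 ± 0.49, -1.49 without the shared barcodes, edgeR adjusted p 0.497, blocked 0.00365). Socs2, a feedback inhibitor of growth hormone signalling, had 46.0 and 30.1 CPM in the controls and 127 and 52.9 CPM in the injured libraries (1.29, 1.39 without the shared barcodes, edgeR adjusted p 0.562, blocked 0.0116). Its log2 fold change was 1.55 in the inner class and 1.02 in the outer class. The groups did not overlap for either gene over all cells. Pik3r1, which encodes the regulatory subunit of PI3K and is named here outside the rule after its values were seen, had 80.6 and 163 CPM in the outer-class controls and 81.6 and 25.8 CPM in the injured libraries, lower only in round 2 (-1.42 ± 0.60, edgeR adjusted p 0.367, blocked 0.00485). Of the rest named by the rule, Insr (-0.59), Htra1 (-0.62), Stat5a (-0.71) and Igf2bp3 (0.73) in all cells were not called in either fit. The same held in the inner class for Stat5a (-1.01), Ghr (-0.52), Adam9 (-0.50), Pik3r1 (0.54) and Mtor (0.50). Outer-class genes of the same kind were Akt1 (0.96), Foxo1 (-0.99), Foxo3 (-0.80), Ghr (-0.86) and Shc1 (0.06).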

How the data were processed

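Droplet libraries (10x v3 chemistry) were deposited by the authors as raw UMI counts of genes in barcodes on mm10. Per the file headers, Cell Ranger 6.0.0 wrote control round 1 and Cell Ranger 4 the other 3. Control round 1 lists only 444 barcodes of at least 502 UMIs, which limits its shallow cells and leaves it no free RNA. Total UMIs were 1114210 to 16972879 per library. Barcodes with at least 250 genes were kept, and clustered (scanpy 1.11.5, leidenalg 0.10.2, resolution 1.0, 2000 variable genes without the members or the IGF list). Counts were summed per library and tested with edgeR 4.0.16 (filterByExpr, TMM, glmQLFTest), with DESeq2 1.42.0, the round as a block, other filters, other classes, no TMM and left-out libraries as alternatives. Members, lists and some alternatives were chosen with earlier results of these data known. Outer-class splits, the fit without TMM and the combined settings were added after seeing the data. Control and injured discs came from the same animals, and deviations of the 2 libraries of a round correlated at 0.528 (all cells), 0.546 (inner class) and 0.298 (outer class). List genes were named by rule: at most 4 in each direction, with the largest log2 change, the same way in both rounds and at least 20 UMIs, and any called. Like genes are the 3 with the highest r among genes with at least 200 UMIs. Intervals are 95%, and limits for a count of 0 use 3 counts. Scripts were tested on simulated data. Protein sequences were not used here.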

Additional observations from a re-analysis of the deposited data

Results flagged for a closer look

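The difference of the injury effect between the outer and the inner class passed edgeR's interaction test for 2 members. For Igfbp5 it was -3.37 on the log2 scale, the outer-class log2 fold change being -3.31 and the inner-class one 0.09. For Igfbp4 it was -2.72, from -1.04 in the outer and 1.74 in the inner class, neither of which was called without the block. With the round as a block the inner-class value was called (edgeR adjusted p 2.40e-04, and 7.53e-05 without shared barcodes) and the outer-class one was not (0.194). All inner-class Igfbp4 levels lay below the 66.1 to 121 CPM of free RNA, and the inner-class value was -1.62 at resolution 0.5. Without injured round 2 neither difference kept its call (-2.16 for Igfbp5 and -2.43 for Igfbp4). Without control round 2 that of Igfbp4 did not (-2.05). The share of the classes taken by each cluster moved with the same contrast, and its part was not tested beyond the cluster values given in the report.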

How the results depend on the processing

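For single members 386 alternative values were counted as the same, 45 as turned in sign, 19 as newly called and 6 as having lost a call. For log2 fold changes the same means direction and call, and shares have no call. Shares of the binding protein pool with a library left out were counted as the same where they moved by less than the spread between libraries, whatever their sign. The number of members called in all cells, 0, was 1 with DESeq2, 2 with the round as a block, 1 with the block and no shared barcodes, 1 without control round 1 and 2 without injured round 2 (0 to 2 over the left-out libraries). In the inner class, 0, it was 1 with the block, with or without shared barcodes, and 1 without injured round 1 (0 to 1). In the outer class, 1, it was 3 with the block, with or without shared barcodes, 3 without injured round 1, 0 without injured round 2 (0 to 3) and 0 in the Myoc and Angptl7 cluster only. For the difference between classes, 2, it was 3 with the block (Igfbp6 added), 1 without control round 2, 4 without injured round 1, 0 without injured round 2 (0 to 4) and 0 between the Myoc and Angptl7 and the Cnmd and Grem1 clusters. The block changed no other call of a member. Outer-class sums could not be fitted at resolution 0.5, where control libraries held 7 and 6 cells. Over all genes, calls in all cells moved from 10 (0 higher, 10 lower) to 168 with DESeq2 (43 higher, 125 lower), 803 with the block, 247 with the block and no shared barcodes, 33 without TMM, 34 without a filter, 19 under 10% mitochondrial UMIs, 3 without shared barcodes, 2 without clusters of similar barcodes, 0 at 500 genes, and 124 to 271 with a library left out. Inner-class calls moved from 0 to 90 with DESeq2, 906 with the block, 1002 with the block and no shared barcodes, 61 without a filter, 14 without TMM, at 500 genes or under 10% mitochondrial UMIs, 15 without shared barcodes and 0 to 158 with a library left out. Outer-class calls moved from 39 to 67 with DESeq2, 456 with the block, 271 without a filter, 19 without TMM, 3 with a marker score and 0 to 595 with a library left out, and those of the difference from 36 to 296 with the block, 1 between the 2 clusters and 16 to 455 with a library left out.

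Signs turned for these log2 fold changes. In all cells Igfbp7 (0.02) became -0.00573 at 500 genes per cell, -0.0514 without TMM, -0.0689 under 10% mitochondrial UMIs, -0.0152 without shared barcodes and -0.0270 with the block as well, and Igf1r (0.04) became -0.0443, -0.0130, -0.00257, -0.0124 and -0.0297. Igf2 became 0.0421 with the block and 0.00438 without shared barcodes as well. Igfbp3 became 2.34 at 500 genes and 2.40 without clusters of similar barcodes. In the inner class Igfbp5 became -0.0294 with a marker score, -0.953 at resolution 0.5, -0.0642 without TMM and -0.00600 with the block and no shared barcodes. Resolution 0.5 also gave -0.103 for Igf1, -1.62 for Igfbp4 and -0.324 for Igfbp6, which was -0.0471 with the marker score. The Myoc and Angptl7 cluster only gave 0.28 for Igfbp7, 0.32 for Igf1r and 0.15 for Igfbp6, and against the Cnmd and Grem1 cluster 0.21, 0.25 and, for Igfbp4, 4.61, a fitted value from which nothing is read because the latter cluster held 0 Igfbp4 UMIs in both injured libraries. Leaving out 1 library gave ranges in all cells of -0.160 to 0.199 for Igfbp7, -0.163 to 0.252 for Igf1r, -0.674 to 1.56 for Igf2, -0.608 to 1.63 for Igf1, -1.02 to 1.12 for Igfbp3 and -2.87 to 0.493 for Igfbp4. The inner-class ranges were -0.659 to 0.618 for Igfbp5, -0.105 to 0.559 for Igfbp7 and -2.12 to 1.30 for Igf2. In the outer class they were -0.665 to 0.260 for Igf1r and -1.84 to 0.364 for Igfbp4, and for the difference -0.848 to 0.0663 for Igf1r. Thinned shares turned to -2.03 for Igfbp4 and -3.25 for Igfbp6 percentage points in all cells at 500 UMIs, and to -0.464 for Igf1r in the outer class at 2000. Shares of the binding protein pool, not counted among the turned signs, also turned with a library left out. The Igfbp4 difference (-2.87 percentage points) reached 1.09 in all cells. In the outer class that of Igfbp4 (3.43) reached -3.60 and that of Igfbp6 (-4.53) reached 0.515. The causes were not tested.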
